A study of Mus musculus with 8 samples.

Results

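Arginine, creatine and polyamine metabolism was followed in mouse kidney through 9 genes, taken as the probes that carry their names on the array: Ass1 and Asl for arginine synthesis, Arg2 and Gatm for arginine use, Oat and Odc1 for ornithine use, and Azin1, Srm and Sat1 for polyamine control. All 9 were measured, among 21264 genes tested. Over the 3 groups with ischaemia-reperfusion injury, the transcripts for making arginine (Ass1, Asl) and for the entry into creatine synthesis (Gatm) fell, while Arg2, Azin1 and Srm rose, and Oat and Sat1 did not pass the test. Odc1 passed it as lower over the injured groups together and, among single groups, in the mimic group. Azin1 and Srm passed it over the injured groups together and in the control-miRNA and IRI groups, but not in the mimic group.

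The study tested whether a mimic of the microRNA miR-5100, given before the injury, alters kidney gene expression. Left kidneys of 8 mice were taken 24 h after surgery, 2 mice in each of 4 groups, and each RNA was read on 1 one-colour Agilent mouse array. The mimic group received the miR-5100 mimic (5 nmol in 200 μl) bound to polyethyleneimine nanoparticles (PEI-NPs) through the tail vein 2 days before injury. The control-miRNA group received a control RNA on the same particles at the same dose and time. The IRI group had the injury with no injection. In these 3 groups the right kidney was removed and the left kidney was clamped for 45 min and reperfused (the IRI-AKI model, acute kidney injury by ischaemia-reperfusion). The sham group had a midline incision and kept both kidneys, so injured and sham mice differed by the nephrectomy as well as by the clamping, and these cannot be told apart. The sources used here do not give strain, sex or age. The numbers in the titles (mimic 6 and 7, control-miRNA 1 and 5, IRI 30 and 34, sham 1 and 4) were read as separate mice, and p-values measure the spread between these samples only.

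The kidney is the main site where the body turns circulating citrulline into arginine. Cells of the proximal tubule do this with Ass1 and Asl, and export the arginine. Arginine is then split by arginases to ornithine and urea, passed to nitric oxide synthases, or used by Gatm, which is abundant in kidney, to start creatine synthesis. Ornithine goes through Oat towards glutamate and proline, or through Odc1 to putrescine, from which spermidine and spermine are built. These polyamines are needed for growth and translation, and their synthesis is held in check by antizymes.

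The injected mimic has the letters of the mature mouse miRNA, which lies at chr11:60728698-60728718 on the plus strand of GRCm38.p6 in RefSeq. It is shown because it is the agent tested; capitals mark the seed, bases 2 to 8.
mmu-miR-5100: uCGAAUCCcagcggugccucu

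The levels of Arg2 and Asl each rest on 1 probe of 60 bases, shown because these genes gave the highest rise and a fall that was near equal in all 3 injured groups. The Arg2 probe lies at chr12:80252972-80253031, plus strand, and the Asl probe spans chr5:130487513-130487736, minus strand, both in build mm9 as the files give it. The Asl span of 224 bases is longer than the probe, so the probe joins separated blocks of the genome. No capitals are used in the probes, since no stretch is set apart.
Arg2 probe: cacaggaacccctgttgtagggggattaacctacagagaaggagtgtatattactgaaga
Asl probe: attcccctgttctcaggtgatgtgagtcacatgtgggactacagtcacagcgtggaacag

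Promoters of 5 of the 9 genes were in the RefSeq table of build GRCm38.p6, as 250 bases before to 50 bases after the start of the gene. Ass1 and Gatm are shown because both transcripts fell in all 3 injured groups. Ass1 has its promoter at chr2:31470020-31470319, plus strand, and Gatm at chr2:122611228-122611527, minus strand. Capitals mark motifs searched for on both strands. In Ass1 this is the E-box CACGTG. In Gatm it is the CCAAT box, read backwards as its complement where it lies on the other strand.
Ass1 promoter: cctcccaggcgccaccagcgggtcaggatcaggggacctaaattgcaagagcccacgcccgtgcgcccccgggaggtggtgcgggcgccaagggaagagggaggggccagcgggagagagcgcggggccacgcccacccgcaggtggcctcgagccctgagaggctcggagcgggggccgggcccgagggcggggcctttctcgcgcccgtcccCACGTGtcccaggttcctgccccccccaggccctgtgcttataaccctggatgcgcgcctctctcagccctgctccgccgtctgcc
Gatm promoter: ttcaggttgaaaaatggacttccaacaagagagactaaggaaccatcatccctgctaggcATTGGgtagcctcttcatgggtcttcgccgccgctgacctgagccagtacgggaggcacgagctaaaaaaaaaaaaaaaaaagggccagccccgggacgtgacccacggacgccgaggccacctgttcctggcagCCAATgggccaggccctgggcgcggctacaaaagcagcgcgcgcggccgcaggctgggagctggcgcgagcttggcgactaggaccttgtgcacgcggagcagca
The E-box of Ass1 begins at base -36 from the start, and 7.15% of 32851 promoters in the table hold one. Gatm has 2 CCAAT boxes, at -190 and -55, and Oat also has 2, at -47 and -22, while 37.4% of promoters in the table hold at least 1. Odc1 and Sat1 held neither motif in this window. Such a match is a description of the letters only.

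A level here is the log2 of the processed signal of a probe minus the 75th percentile of its array, so 1 unit is a 2-fold change and levels of different probes are not compared. All 15 probes for the 9 genes were well above background on all 8 arrays, with 0 flagged and 0 saturated spots, and where a gene had several, the one with the highest mean was used. Kidney identity held on all 8 arrays, where Umod, Slc34a1, Slc12a1, Nphs1 and Aqp2 were well above background. The mimic arrays were the dimmest: their 75th percentiles were 308 (mimic 6) and 242 (mimic 7) signal units, against 416 to 500 in control-miRNA, 468 and 600 in IRI and 408 and 476 in sham arrays. Mice of a group also differed most in the mimic group, where the 2 mice differed per gene with an SD of 0.669 (log2), against 0.515 in control-miRNA, 0.390 in IRI and 0.327 in sham mice. Injury markers separated injured from sham kidneys. The summed level of Havcr1, Lcn2 and Krt20 (the log2 of their summed linear levels) was 7.95 and 6.44 in mimic 6 and 7. It was 7.83 to 8.34 in the other injured kidneys, and -0.38 and -0.09 in sham kidneys. Mimic 7 thus stood apart from the other injured kidneys in brightness and in injury markers.

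**Figure D1:**
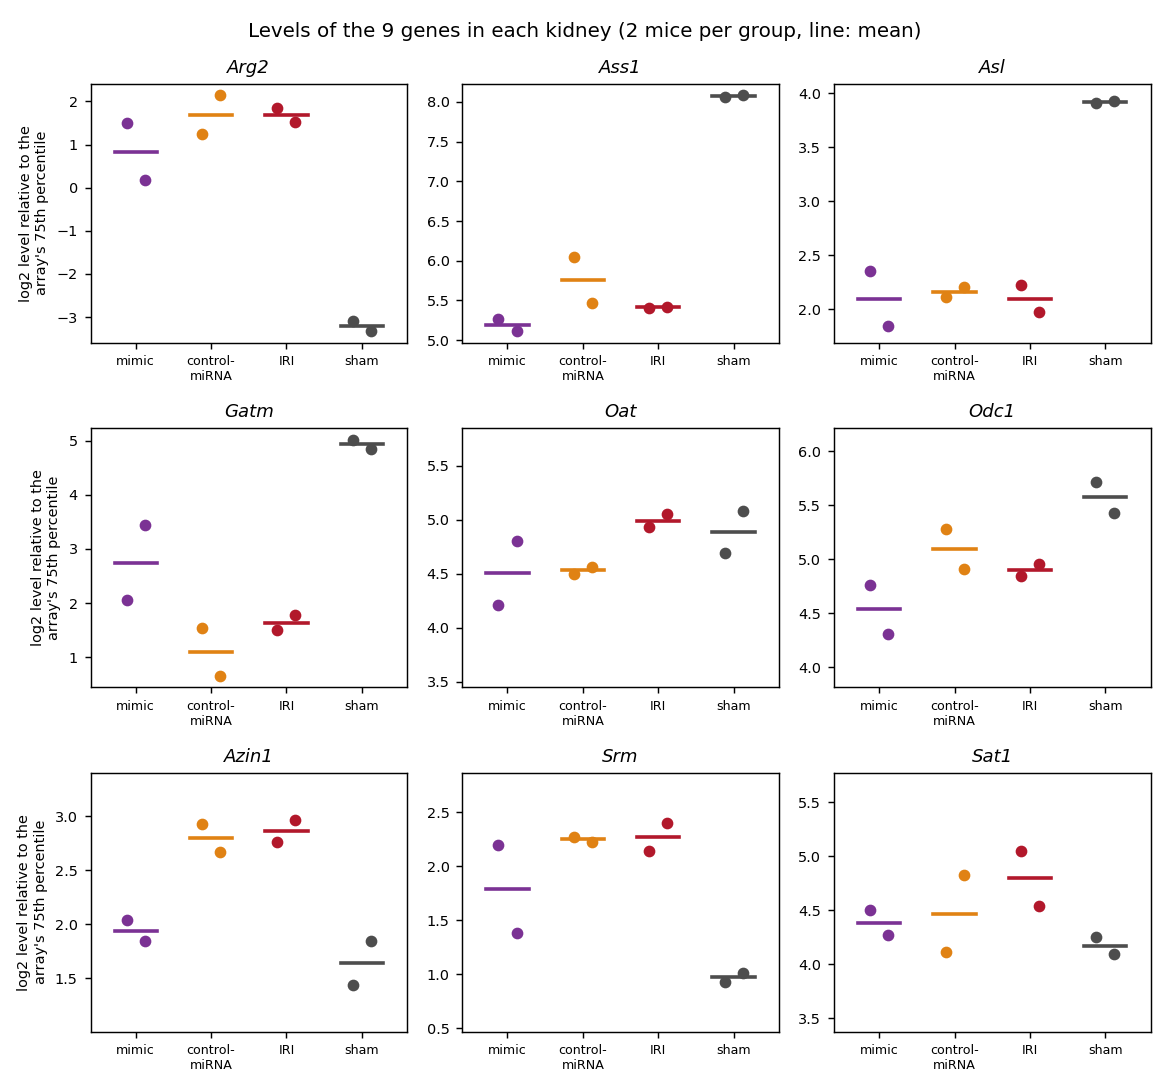
Level of each of the 9 genes in each kidney, as log2 relative to the 75th percentile of the array (y axis; each panel has its own range), for mimic, control-miRNA, IRI and sham mice from left to right. Points are mice, lines are means of 2 mice. Arg2, Azin1 and Srm lie higher, and Ass1, Asl, Gatm and Odc1 lower, in all 6 injured kidneys than in both sham kidneys, while Oat and Sat1 overlap. For Azin1 the gap is very small, with mimic 7 at 1.846 and sham 4 at 1.843. For Srm, mimic 7 lies below both sham kidneys on 2 dimmer probes that are not shown.

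Ass1, argininosuccinate synthase, joins citrulline and aspartate. Its level was 5.26 and 5.11 in mimic, 6.05 and 5.47 in control-miRNA, 5.41 and 5.42 in IRI and 8.06 and 8.08 in sham kidneys. All 6 injured kidneys were far below both sham kidneys, which differed by 0.02. Over the injured groups Ass1 fell by 2.62 ± 0.18 on the log2 scale (moderated SE; limma, adjusted p = 0.000406), a level 6.14-fold lower. The log2 difference was -2.88 ± 0.22 in the mimic group (adjusted p = 0.00117), -2.32 ± 0.22 in the control-miRNA group (0.00208) and -2.66 ± 0.22 in the IRI group (0.0011), each against the same sham kidneys.

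Asl, argininosuccinate lyase, releases arginine and fumarate from the product of Ass1. Its level was 2.35 and 1.85 in mimic, 2.11 and 2.20 in control-miRNA, 2.22 and 1.97 in IRI and 3.91 and 3.93 in sham kidneys. The 3 injured groups overlapped each other and none reached the sham kidneys. Asl fell by 1.80 ± 0.17 over the injured groups (adjusted p = 0.00101), a level 3.49-fold lower. Within groups the log2 differences from sham were -1.82 in mimic, -1.76 in control-miRNA and -1.82 in IRI kidneys (SE 0.21 each; adjusted p = 0.00292, 0.00398 and 0.00317 in that order). A dimmer Asl probe, with signals of 21.2 to 91.6 units, gave a difference of -1.09 over the injured groups and of -0.09 in the mimic group.

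Arg2, the mitochondrial arginase, splits arginine to ornithine and urea and is the arginase that kidney tubules express. Its level was 1.50 and 0.17 in mimic, 1.25 and 2.14 in control-miRNA, 1.84 and 1.51 in IRI and -3.10 and -3.32 in sham kidneys. Every injured kidney was above both sham kidneys, and mimic 7 was the lowest of the injured. Over the injured groups Arg2 rose by 4.61 ± 0.38 (adjusted p = 0.000695), or 24.4-fold. Its probe was dim in sham kidneys, at 47.6 signal units in each, so the size of the rise varied with the setting. Over the alternative settings the log2 difference was 3.38 to 4.90 over the injured groups and 2.83 to 4.16 in mimic kidneys. The rise was 16.5-fold in mimic (log2 4.04 ± 0.47, adjusted p = 0.00292), 29.9-fold in control-miRNA (4.90 ± 0.47, 0.00214) and 29.6-fold in IRI kidneys (4.89 ± 0.47, 0.00177). By mean level the order was control-miRNA (1.69 ± 0.63, SD, n = 2), IRI (1.68 ± 0.23), mimic (0.83 ± 0.94) and sham (-3.21 ± 0.16), and the neighbours among the first 3 did not differ beyond their spread. The liver arginase Arg1 and Otc, which makes citrulline from ornithine in the liver urea cycle, did not pass the detection filter, as neither had a probe well above background on both arrays of any group.

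Gatm, the mitochondrial amidinotransferase that takes the amidino group of arginine for creatine, fell with the widest spread among injured kidneys. Its level was 2.06 and 3.44 in mimic, 1.55 and 0.67 in control-miRNA, 1.50 and 1.78 in IRI and 5.01 and 4.84 in sham kidneys. All injured kidneys lay below sham, and both mimic kidneys lay above the other 4 injured ones. Over the injured groups its log2 difference was -3.10 ± 0.39 (adjusted p = 0.00261), a level 8.55-fold lower. The log2 differences from sham were -2.18 ± 0.47 in mimic (adjusted p = 0.0187), -3.82 ± 0.47 in control-miRNA (0.00442) and -3.29 ± 0.47 in IRI kidneys (0.00663). A further Gatm probe gave -3.27 over the injured groups. The mimic call was lost without sham 1 (adjusted p = 0.0899) or sham 4 (0.0915), and the IRI call without sham 1 (0.0529) or IRI 30 (0.0541). With slide column as a covariate the IRI call was also lost (0.0615), and the mimic call was lost in a fit of only the mimic and sham arrays (0.0502).

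Oat, ornithine aminotransferase, carries ornithine towards glutamate and proline. Its level was 4.21 and 4.80 in mimic, 4.50 and 4.57 in control-miRNA, 4.93 and 5.05 in IRI and 4.69 and 5.09 in sham kidneys. Injured and sham kidneys overlapped, and the difference over the injured groups was -0.21 (95% interval -0.68 to 0.26, adjusted p = 0.489).

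Odc1, ornithine decarboxylase, makes putrescine and is the rate-limiting enzyme of polyamine synthesis. Its level was 4.77 and 4.31 in mimic, 5.28 and 4.92 in control-miRNA, 4.85 and 4.96 in IRI and 5.72 and 5.43 in sham kidneys. All 6 injured kidneys were below both sham kidneys, by little in control-miRNA 1. Odc1 fell by 0.73 ± 0.19 over the injured groups (adjusted p = 0.0299) and by 1.04 ± 0.23 in mimic kidneys (0.0195). The differences of -0.48 in control-miRNA (adjusted p = 0.194) and -0.67 in IRI kidneys (0.087) did not pass. The call over the injured groups was lost without sham 1 (adjusted p = 0.240), sham 4 (0.113), IRI 30 (0.0733), IRI 34 (0.0613) or control-miRNA 5 (0.0536), and with no filter on dim probes (0.0677), the mean over probes (0.0510) or slide column as a covariate (0.0739). The mimic call was lost without sham 1 (0.109), sham 4 (0.0775) or mimic 7 (0.0539) and in a fit of only its arrays (0.0583), and the IRI difference passed without mimic 6 or mimic 7 (0.0471 each), with quantile normalization (0.0483), array weights (0.019) or the deposited ratios (0.0485) and in a fit of only its arrays (0.034).

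Azin1, antizyme inhibitor, binds antizyme and so spares ornithine decarboxylase from degradation. Its level was 2.04 and 1.85 in mimic, 2.93 and 2.67 in control-miRNA, 2.76 and 2.97 in IRI and 1.44 and 1.84 in sham kidneys. The control-miRNA and IRI kidneys lay well above sham, and mimic 7 exceeded sham 4 by less than 0.01. Azin1 rose by 1.16 ± 0.21 in control-miRNA (adjusted p = 0.0146) and by 1.22 ± 0.21 in IRI kidneys (0.0111), or 2.23-fold and 2.34-fold. The mimic difference was 0.30 ± 0.21 (adjusted p = 0.305), and the rise over the injured groups was 0.89 ± 0.17 (0.0112). Without sham 1 all 3 calls were lost (adjusted p = 0.111 for control-miRNA, 0.0892 for IRI and 0.127 over the injured groups). The control-miRNA call was also lost without sham 4 (0.0504) or control-miRNA 1 (0.0869), and the IRI call without IRI 30 (0.0585) or IRI 34 (0.0773). With slide column as a covariate all 3 calls were lost (0.108 for control-miRNA, 0.094 for IRI and 0.07 over the injured groups).

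Srm, spermidine synthase, turns putrescine into spermidine. Its level was 2.19 and 1.38 in mimic, 2.28 and 2.23 in control-miRNA, 2.14 and 2.40 in IRI and 0.93 and 1.02 in sham kidneys. Mimic 7 was the lowest injured kidney, above both sham kidneys on this probe. On 2 dimmer Srm probes mimic 7 lay below both sham kidneys, at 0.28 against 0.32 and 0.31, and at -1.02 against -0.88 and -0.76. These 2 probes gave log2 differences of 0.44 and 0.32 in mimic kidneys against sham. Srm rose by 1.28 ± 0.27 in control-miRNA (2.42-fold, adjusted p = 0.024) and by 1.30 ± 0.27 in IRI kidneys (2.45-fold, 0.022). The mimic difference of 0.81 ± 0.27 did not pass (adjusted p = 0.065), and passed without mimic 7 (1.22, 0.011) and with the normexp background (0.71, 0.0487). Over the injured groups Srm rose by 1.13 ± 0.22 (adjusted p = 0.0127), and the 2 dimmer probes gave 0.98 and 0.90. That call was lost without sham 1 (adjusted p = 0.108) or sham 4 (0.0955). The control-miRNA call was lost without either sham or either control-miRNA array (0.0750 to 0.137), and the IRI call without either sham or either IRI array (0.0820 to 0.129). With slide column as a covariate all 3 calls were lost (0.174 for control-miRNA, 0.171 for IRI and 0.0813 over the injured groups), and the IRI call also with brightness as a covariate (0.0635).

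Sat1, which acetylates spermidine and spermine for breakdown or export, did not pass in any comparison with sham. Its level was 4.50 and 4.27 in mimic, 4.11 and 4.82 in control-miRNA, 5.05 and 4.54 in IRI and 4.25 and 4.10 in sham kidneys. Control-miRNA 1 lay between the sham kidneys, and the other 5 injured kidneys lay above them. The difference over the injured groups was 0.38 (95% interval -0.18 to 0.93, adjusted p = 0.286). A dimmer Sat1 probe gave 0.71 over the injured groups and 1.33 in the mimic group, with the same sign as the first probe in both and a larger size.

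Of the 9 genes, 7 passed over the injured groups, 3 higher and 4 lower, where 25.8% of all genes passed (13.6% higher and 12.2% lower). In mimic kidneys 5 passed, 1 higher and 4 lower, against 28% of all genes (15.2% and 12.8%). In control-miRNA kidneys 6 passed, 3 in each direction, against 17.3% (9.55% higher and 7.79% lower), and in IRI kidneys 6 passed, 3 in each direction, against 18.3% (9.45% and 8.85%). These comparisons share the sham kidneys, and the 9 genes were chosen with earlier results of these data known. On the probe used for each gene, levels of injured and sham kidneys did not overlap for 7 of the 9 genes (for Azin1 by a very small gap), against 35.6% of all genes. The median log2 difference of the 9 genes was -0.21 over the injured groups, against -0.01 for all genes tested. It was -0.38 in mimic (all genes 0.11), -0.35 in control-miRNA (-0.05) and 0.10 in IRI kidneys (-0.08). The count over the injured groups was 4 without sham 1, where 6.58% of all genes passed. The count in mimic kidneys was 3 without sham 1 or sham 4, where 8.17% and 5.17% of all genes passed, and the count in IRI kidneys was 3 without sham 1 or IRI 30 (3.77% and 4.09%). Ass1, Asl and Arg2 kept their calls without any 1 array in each comparison with sham. With array brightness as a covariate, 0 of the 9 passed in mimic kidneys by limma, where 0.541% of all genes passed, and both mimic arrays were the dimmest. At an unadjusted p under 0.05, 6 of the 9 and 4163 of the 21264 genes passed in that fit. The log2 differences in that fit were 4.16 for Arg2, -2.48 for Ass1, -1.69 for Asl, -2.53 for Gatm and -0.60 for Odc1, against 4.04, -2.88, -1.82, -2.18 and -1.04 without the covariate.

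**Figure D2:**
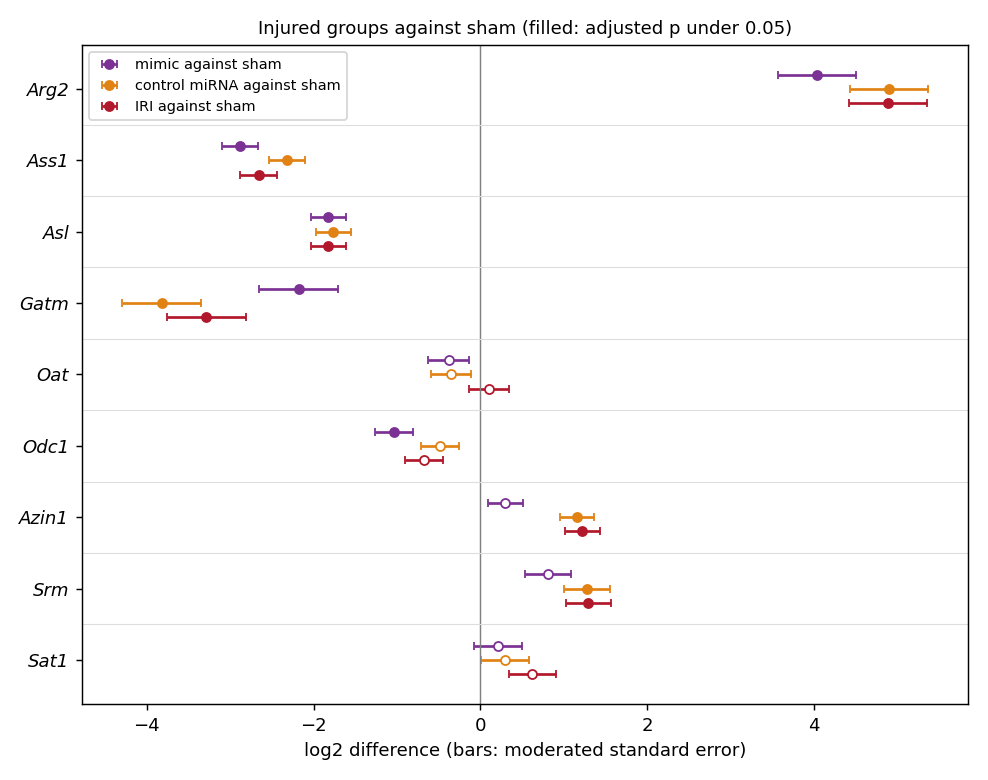
Log2 difference from sham (x axis) for each gene in mimic, control-miRNA and IRI kidneys, from top to bottom within a gene. Bars are 1 moderated standard error, and filled points have an adjusted p under 0.05. Arg2 is the farthest to the right and Gatm, Ass1 and Asl the farthest to the left, while Azin1 and Srm are filled in control-miRNA and IRI kidneys but not in mimic kidneys, and Odc1 in mimic kidneys only.

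Whole-kidney RNA was read, so fewer cells of a type and less RNA per cell cannot be told apart. Proximal tubule markers moved with the falls of Ass1, Asl and Gatm. The summed level of Slc34a1, Lrp2, Cubn, Slc5a2 and Slc22a6 was 7.56 to 7.97 in the injured kidneys and 9.25 and 9.29 in sham kidneys, and 4 of these 5 fell (all but Slc22a6). A sum is weighted to its brightest marker, which in injured kidneys was Slc22a6, at 6.22 to 6.96. Over the injured groups the log2 differences of the other 4 were -1.12 to -2.52. Of 5 proximal straight tubule markers 3 were called over the injured groups, all lower: Slc7a13 (-5.13), Slc22a7 (-4.26) and Acsm3 (-3.12). Slc5a10 and Kap were not called. Some markers of other tubule segments fell too. Of 4 loop and distal markers 2 were called, both lower: Slc12a1 (-2.27) and Calb1 (-1.57). Of 4 collecting duct markers 2 were called, both lower: Aqp3 (-1.16) and Slc4a1 (-2.78). Umod, Slc12a3, Aqp2 and Atp6v1g3 were not called. The part of these tubule markers in the falls, or beside the rise of Arg2, was not tested. Leukocyte markers are given beside the rise of Arg2, since macrophages can express it. The summed level of 6 macrophage markers was 3.62 to 4.66 in injured and 4.12 to 4.42 in sham kidneys, with 2 of 6 called, Cd68 higher and Csf1r lower. That of 5 neutrophil markers was 5.47 to 6.62 in injured and 5.50 to 5.65 in sham kidneys. With 3 of 5 called, S100a8 (3.92), S100a9 (3.27) and Cxcr2 (2.06) were all higher. The sum does not show these rises, as it was carried by the brightest marker, Csf3r, at 5.11 to 6.55 in injured kidneys and not called. Their part in the rise was not tested. Of 5 hepatocyte markers Apoa1 was well above background on 0 arrays and the other 4 on all 8, with a summed level of 3.22 to 6.25 in injured and 6.39 and 6.42 in sham kidneys and 2 called. Of 3 adrenal cortex markers, Cyp11b1 and Cyp11a1 were well above background on 0 arrays and Star on the 6 injured arrays.

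The question of what the mimic adds was addressed by the comparisons among injured kidneys. In mimic against control-miRNA kidneys, 0 of the 9 genes passed by limma, and 0% of all genes did. At an unadjusted p under 0.05, 4 of the 9 genes (Ass1, Azin1, Gatm and Odc1) and 7188 of the 21264 genes passed. Gatm was higher by 1.64 (95% interval 0.52 to 2.77, adjusted p = 0.0769), with both mimic kidneys above both control-miRNA kidneys. Azin1 had a difference of -0.86 (-1.36 to -0.37, adjusted p = 0.0673), Ass1 of -0.57 (-1.08 to -0.05, 0.123) and Odc1 of -0.56 (-1.10 to -0.02, 0.14), each with both mimic kidneys below both control-miRNA kidneys. With Srm, 5 of the 9 genes did not overlap between these groups, against 59.2% of all genes. Asl showed a difference of -0.06 (-0.56 to 0.44), Oat of -0.03 (-0.60 to 0.55) and Sat1 of -0.08 (-0.76 to 0.60). The dimmer probes of Asl and Sat1 went the other way here, with differences of 1.43 and 1.01. Without mimic 6, which leaves mimic 7 alone, 29.7% of all genes and 4 of the 9 passed: Arg2 (-1.52, adjusted p = 0.0375), Gatm (2.33, 0.0157), Azin1 (-0.96, 0.037) and Srm (-0.87, 0.0237). In that fit the lone array was taken to vary like the other groups. With the normexp background 3 passed, Ass1 (-0.69, 0.0408), Gatm (1.48, 0.036) and Azin1 (-0.92, 0.0307), against 27.4% of all genes. Azin1 also passed with only probes well above background on all arrays (0.0488), where 8.29% of all genes did.

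In mimic against IRI kidneys, Azin1 was the only one of the 9 genes that passed, lower by 0.92 (95% interval 0.43 to 1.42 lower, adjusted p = 0.0394), against 16% of all genes (5.53% lower and 10.5% higher). Both mimic kidneys, at 2.04 and 1.85, were below both IRI kidneys, at 2.76 and 2.97, and 7 of the 9 genes did not overlap between these groups, against 67.2% of all genes. The call was lost without any 1 array other than mimic 6, with adjusted p of 0.0532 to 0.229, and in 4 other settings: array weights (0.116), array brightness as a covariate (a difference of -0.14), slide column as a covariate (0.242) and a fit of only these arrays (0.106). Gatm was 1.11 higher (-0.02 to 2.23, adjusted p = 0.13), and Arg2 had a difference of -0.84 (-1.96 to 0.27, 0.218). Without mimic 6, the count of the 9 that passed was 4, among them Gatm (1.80, 0.0207), Arg2 (-1.51, 0.0337) and Srm (-0.89, 0.0185), where 35.5% of all genes passed. Oat passed in this comparison with the normexp background (-0.63, 0.0363), where 48.6% of all genes did and their median difference was 0.22. With array median scaling Oat (-0.94, 0.0337) and Sat1 (-0.87, 0.0388) passed, where 31.7% of all genes did and their median was -0.36, against 0.10 with the 75th percentile. In control-miRNA against IRI kidneys 0 of the 9 genes passed, 0 did so at an unadjusted p under 0.05, and 0% of all genes passed by limma, with 870 genes at an unadjusted p under 0.05. The largest differences there were -0.54 for Gatm (-1.66 to 0.59) and -0.46 for Oat (-1.03 to 0.12).

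The median log2 difference of the 9 genes was -0.46 in mimic against control-miRNA (all genes 0.07), -0.41 in mimic against IRI (0.10) and -0.02 in control-miRNA against IRI (0.01). The 9 genes did not order the injured kidneys alike. Among the 6 injured kidneys, mimic 7 lay nearest to sham for Arg2, Gatm, Azin1 and Srm. It lay farthest from sham for Ass1, Asl and Odc1. It was also the dimmest array and had the lowest injury marker sum, and the part of either in these levels was not tested. Slide row 2 held all mimic and control-miRNA arrays and row 1 the other 4, so row and injection cannot be told apart. Slide columns 1 and 2 held all sham and mimic arrays, and columns 3 and 4 all IRI and control-miRNA arrays. Comparisons of IRI or control-miRNA with sham, and of mimic with control-miRNA or IRI, thus also differed by these column sets. Slide column as a covariate cannot remove this difference, as no group lay in both column sets.

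**Figure D3:**
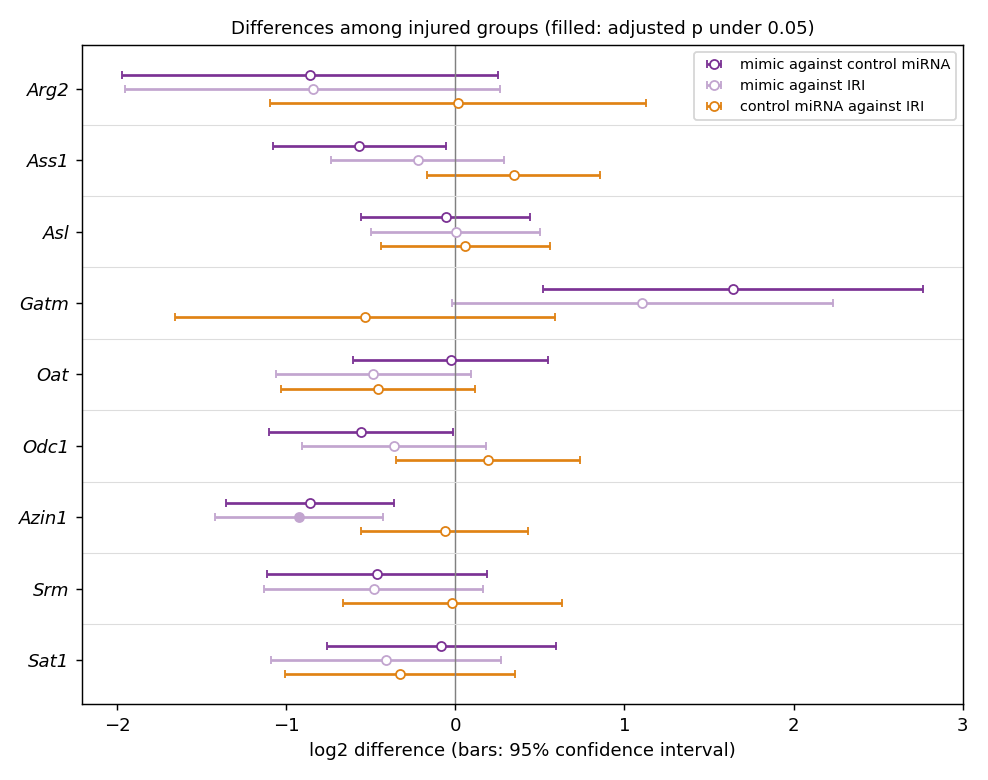
Log2 difference among injured groups (x axis) for each gene: mimic against control-miRNA, mimic against IRI and control-miRNA against IRI, from top to bottom within a gene. Bars are 95% confidence intervals and filled points have an adjusted p under 0.05. Azin1 in mimic against IRI is the only filled point, and the intervals of Gatm, Azin1, Ass1 and Odc1 in mimic against control-miRNA exclude 0 before adjustment.

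The other genes of these pathways were followed in 5 lists of 55 genes, of which 46 could be tested. The lists were chosen with earlier results of these data known, so their counts are a description only. Over the injured groups 9 of the 46 rose, 16 fell and 21 did not pass, against 13.6% higher and 12.2% lower of all genes. Their median log2 difference was -0.37, against -0.01 for all genes. The count of 25 was 11 without sham 1 and 7 without sham 4, where 6.58% and 6.15% of all genes passed.

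In the list of urea cycle, arginine and nitric oxide genes, 2 of 8 tested rose and 2 fell, against 13.6% higher and 12.2% lower of all genes. Agxt2, a mitochondrial aminotransferase that also degrades methylarginines, had a level of 2.64 and 3.13 in mimic, 2.34 and 2.76 in control-miRNA and 4.35 and 4.46 in sham kidneys, with the IRI kidneys between those of the mimic group, and fell by 1.62 ± 0.19 (adjusted p = 0.002). Agmat, annotated as agmatinase, fell by 1.20 ± 0.25 (0.0154). Nos3, the endothelial nitric oxide synthase, rose by 0.78 ± 0.18 (0.0219), and Ddah2, of the family that degrades asymmetric dimethylarginine, by 0.64 ± 0.17 (0.0353). Among single groups both passed against sham in mimic kidneys only. Nos3 differed by 1.18 in mimic (adjusted p = 0.012), 0.67 in control-miRNA (0.0839) and 0.49 in IRI kidneys (0.173). Ddah2 differed by 0.90 in mimic (0.0235), 0.53 in control-miRNA (0.127) and 0.49 in IRI kidneys (0.154). Beside Nos3, the summed level of 4 endothelial markers was 3.55 and 3.88 in mimic, 2.51 and 2.78 in control-miRNA, 2.78 and 2.97 in IRI and 3.28 and 3.55 in sham kidneys, and its part was not tested.

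Ddah1, which degrades the nitric oxide synthase inhibitor asymmetric dimethylarginine, was called among injured kidneys. Its level was 1.99 and 0.42 in mimic, 2.59 and 2.70 in control-miRNA, 3.24 and 3.50 in IRI and 2.86 and 2.76 in sham kidneys. Mimic kidneys were lower than IRI kidneys by 2.17 ± 0.45 (adjusted p = 0.0386), with mimic 7 the lowest of all 8.

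Of 9 tested genes around ornithine, proline and glutamate, 3 rose and 4 fell, against 13.6% higher and 12.2% lower of all genes. Aldh18a1, which makes the glutamate semialdehyde that leads to proline and ornithine, had a level of -0.33 and 0.46 in mimic, -0.21 and -0.71 in control-miRNA, -0.56 and -0.76 in IRI and -2.58 and -2.85 in sham kidneys. It rose by 2.36 ± 0.25 (adjusted p = 0.00143), with no overlap of injured and sham kidneys. The enzymes of proline breakdown fell, Prodh by 1.32 ± 0.23 (0.00789) and Aldh4a1 by 1.40 ± 0.14 (0.00129). Glul, glutamine synthetase, fell by 1.01 ± 0.17 (0.00799).

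Of 4 tested creatine genes, 0 rose and 2 fell, against 13.6% higher and 12.2% lower of all genes. Gamt, which methylates the product of Gatm to creatine, had a level of 0.61 and 1.53 in mimic, 0.24 and 0.17 in control-miRNA, 0.10 and 0.65 in IRI and 2.30 and 2.57 in sham kidneys, and fell by 1.88 ± 0.27 (adjusted p = 0.00427). As for Gatm, mimic 7 was the injured kidney nearest to sham. Ckb, the brain-type creatine kinase, fell by 1.03 ± 0.13 (0.00287), and was 0.72 ± 0.16 higher in mimic than in IRI kidneys (0.0395). The creatine transporter Slc6a8 had a difference of -0.11 ± 0.13 (0.601) and the mitochondrial creatine kinase Ckmt1 of 0.05 ± 0.16 (0.855).

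Of 14 tested polyamine genes, 2 rose, 2 fell and 10 did not pass. These counts are near the shares of all genes (13.6% higher and 12.2% lower), and the median log2 difference of the list was -0.003. Smox, spermine oxidase, had a level of 1.16 and -0.23 in mimic, 1.11 and 0.71 in control-miRNA, 1.16 and 1.14 in IRI and -0.88 and -0.99 in sham kidneys, and rose by 1.78 ± 0.34 (adjusted p = 0.0115). Eif5a, the translation factor that carries hypusine made from spermidine, rose by 0.67 ± 0.13 (0.0107). Sat2, a relative of Sat1, fell by 1.16 ± 0.18 (0.00514), and Azin2, a relative of Azin1, by 0.92 ± 0.20 (0.0182).

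Of 11 tested transporters of arginine and ornithine, 2 rose and 6 fell, against 13.6% higher and 12.2% lower of all genes. Slc7a1, a cationic amino acid transporter of most cells, had a level of 2.40 and 2.05 in mimic, 2.08 and 2.02 in control-miRNA, 2.05 and 2.03 in IRI and 0.51 and 0.48 in sham kidneys, and rose by 1.61 ± 0.14 (adjusted p = 0.000784). Slc7a7, of the basolateral exporter of arginine in tubule cells, was 4.04 and 4.13 in mimic, 3.93 and 4.02 in control-miRNA, 3.86 and 4.09 in IRI and 5.73 and 5.71 in sham kidneys, and fell by 1.71 ± 0.13 (0.000569). The subunits of the apical transporter that reabsorbs cystine and arginine also fell, Slc3a1 by 1.62 ± 0.23 (0.00377) and Slc7a9 by 1.60 ± 0.23 (0.00409). Mimic kidneys were lower than IRI kidneys in both, with log2 differences of -1.08 ± 0.28 for Slc3a1 (0.0465) and -1.05 ± 0.28 for Slc7a9 (0.0491). The proximal tubule marker sum of 7.56 to 7.97 in injured and 9.25 and 9.29 in sham kidneys stands beside these falls too. In mimic against IRI kidneys 4 of the 46 list genes passed, where 16% of all genes did. Without any 1 array other than mimic 6 the count was 0, as it was for all genes, and without mimic 6 it was 14, where 35.5% of all genes passed. In mimic against control-miRNA and in control-miRNA against IRI kidneys 0 of the 46 passed by limma. At an unadjusted p under 0.05, 8 and 0 of the 46 did, against 7188 and 870 of the 21264 genes tested.

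**Figure D4:**
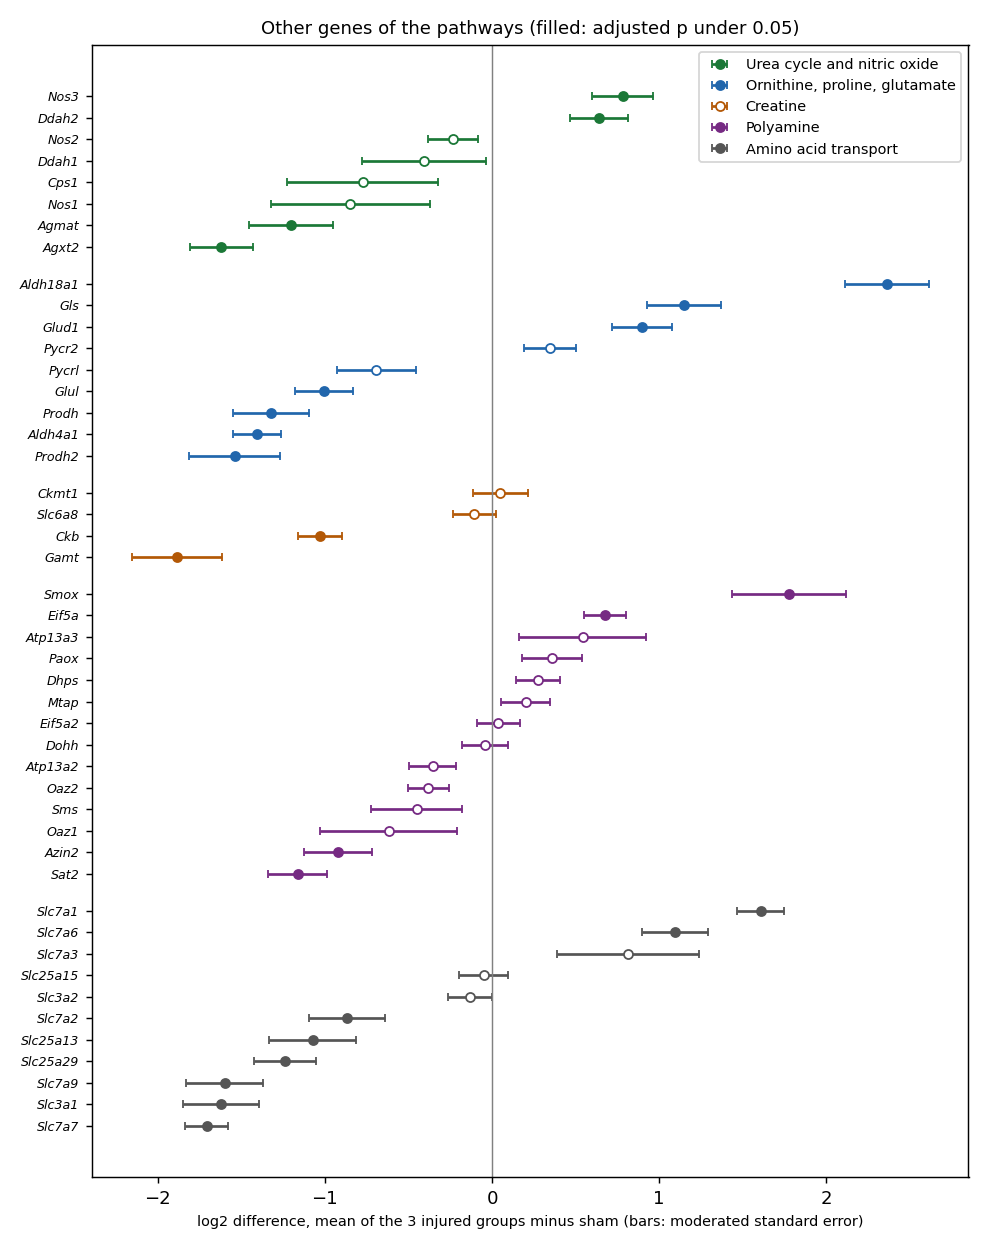
Log2 difference of the mean of the 3 injured groups minus sham (x axis) for the 46 tested genes of the 5 lists, sorted within each list. Bars are 1 moderated standard error, and filled points have an adjusted p under 0.05. Filled points lie on both sides of 0 in 4 lists, with 9 to the right and 16 to the left in all, and in the creatine list only to the left.

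The search for like levels covered 13186 genes well above background on all arrays, with clone, predicted and accession names left out. By Pearson r over the 8 arrays, levels most like those of Arg2 were those of Fbxo4 (0.995), Tgm2 (0.993) and Sf3b5 (0.993). For Gatm they were Rab3il1 (0.993), Slc5a2 (0.992) and Cyp51 (0.982). The arrays fall into injured and sham kidneys. Of the genes searched, 5.73% had r above 0.9 with Arg2 and 2.63% with Gatm, so these values describe a pattern that many genes share.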

How the data were processed

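Total RNA from 30 mg of each left kidney was labelled with Cy3 from 50 ng, per the labels' protocols. The authors made the processed intensity of each spot in Agilent Feature Extraction, version 12.0.3.1 (per the submitters' processing notes), with the background subtracted and no scaling between arrays, per the file headers. Quality flags of a spot are 0 or 1, per the file headers. The authors also deposited a table of linear ratios, each the signal over the median of that probe on 8 arrays, as its values show; any scaling before that step was not given in the sources used here. Its medians per array were 0.992 to 1.02, and it served as an alternative. 0 value columns were left unused.

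Control and flagged spots (79 to 127 per array) were left out. The log2 signal minus the 75th percentile of the array was averaged per probe. A probe was kept where 1 group or more had it well above background on both arrays (32218 of 56605). Of all probes, 33767 were named by RefSeq accession, 9866 by symbol, 310 by older symbol and 12662 by the file. The probe with the highest mean stood for its gene. limma 3.58.1 (lmFit, eBayes; R 4.3.3) was fitted to 8 arrays with a mean per group (6.84 moderated degrees of freedom). Benjamini-Hochberg adjustment ran over 21264 genes, with a threshold of 0.05. The fit was tested on simulated data. All arrays shared 1 slide and 1 scan time. With 2 mice a group, their number limits the precision.

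The 9 genes and the lists were chosen with earlier results of these data known. Named from each list are at most 4 genes with the smallest p over the injured groups, and genes called among injured groups. Alternatives changed background correction, scaling, filter, probe choice, weights, covariates and arrays.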

Additional observations from a re-analysis of the deposited data

How the results depend on the processing

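Of the 63 differences of single genes, the calls for Ass1, Asl and Arg2 in each comparison with sham held their direction and side of the threshold in every setting and without any 1 array, except in mimic against sham with array brightness as a covariate (adjusted p = 0.0652, 0.127 and 0.12 in that order). The cause of the changes below was not tested. Counts are of the 9 genes, then of the 46 list genes, with the share of all genes that passed in the same fit. Slide column as a covariate gave 3 and 4 in IRI against sham (3.9% of all genes), 4 and 15 over the injured groups (11.3%), 8 list genes in control-miRNA against sham (3.93%), and 0 and 0 in mimic against IRI (0%). That covariate cannot adjust for columns 1 and 2 against columns 3 and 4, since each group lay wholly within one of these sets. Array brightness as a covariate gave 0 and 0 in mimic against sham (0.541%), 10 list genes in IRI against sham (8.73%), and 0 and 0 in mimic against IRI (0%). Fits of only the groups compared gave 3 and 15 in mimic against sham (14.3%) and 0 and 0 in mimic against IRI (0%). The normexp background gave 3 and 6 in mimic against control-miRNA (27.4%), and 2 and 17 in mimic against IRI (48.6%). Requiring probes well above background on all arrays gave 1 of the 9 genes in mimic against control-miRNA (8.29%) and 7 list genes in mimic against IRI (24.2%). In mimic against IRI, array median scaling gave 3 and 12 (31.7%), array weights 0 and 0 (0%), no filter 12 list genes (32.4%), and quantile normalization and the deposited ratios 2 list genes each (10.8% each).

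Without 1 array in turn, the 9 genes gave 3 to 7 calls in IRI against sham, 3 to 5 in mimic against sham, 4 to 6 in control-miRNA against sham, 4 to 7 over the injured groups, 0 to 4 in mimic against control-miRNA and in mimic against IRI, and 0 in control-miRNA against IRI. The list genes gave 4 to 24, 6 to 25, 4 to 24, 7 to 31, 0 to 11, 0 to 14 and 0 in the same order of comparisons. The shares of all genes that passed were 3.77% to 28%, 5.17% to 34.5%, 3.26% to 26.9%, 6.15% to 34.2%, 0% to 29.7%, 0% to 35.5% and 0%. Where that left a group with 1 array, it was taken to vary like the others. Without both mimic arrays, a setting chosen after seeing the data, 7, 6, 7 and 0 of the 9 genes passed in IRI against sham, control-miRNA against sham, the mean of both against sham, and control-miRNA against IRI, where 28%, 26.9%, 34.1% and 0% of all genes did.

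Signs turned in some settings for differences that were not called. In comparisons with sham these were Oat in IRI (-0.00488 with quantile normalization, -0.00333 with deposited ratios) and Sat1 in mimic (-0.072 with array median scaling, -0.39 with brightness). In mimic against control-miRNA they were Asl (0.0093, 0.69, 0.079, 0.022 and 0.00835 with quantile, mean over probes, brightness, column and deposited ratios), Oat (0.079 with quantile and with deposited ratios), Sat1 (0.0042, 0.46, 0.061 and 0.0037 with quantile, mean over probes, column and deposited ratios) and Srm (0.36 with brightness). In mimic against IRI they were Asl (-0.11 with normexp, -0.46 with array median), Sat1 (0.21 with mean over probes), and with brightness Ass1 (0.33), Odc1 (0.24) and Srm (0.58). In control-miRNA against IRI they were Arg2 (-0.10) and Asl (-0.060) with array median, and Azin1 (0.11) and Srm (0.22) with brightness. Without 1 array in turn, signs turned for Oat in IRI against sham (-0.093 to 0.30), Sat1 in control-miRNA against sham (-0.057 to 0.65), Asl (-0.31 to 0.19), Oat (-0.32 to 0.27) and Sat1 (-0.44 to 0.27) in mimic against control-miRNA, Asl in mimic against IRI (-0.25 to 0.25), and in control-miRNA against IRI Arg2 (-0.43 to 0.46), Asl (-0.066 to 0.18), Sat1 (-0.68 to 0.025), Azin1 (-0.19 to 0.067) and Srm (-0.15 to 0.11).

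No paired analysis was possible because the labels give no pairing of mice across groups. The slide could not be used as a block, since all arrays lay on 1.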
